A study of Mus musculus with 6 samples.

Results

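Germ line and meiosis genes were followed in mouse embryonic stem cells without the homeobox gene Hoxd12. The set was a list of 38 genes of meiotic chromosomes, of the piRNA pathway and of germ cell regulation, together with members of the X-linked Xlr and Rhox clusters. They were found by symbol among the 55450 genes of the deposited tables. Of the 38 genes, 33 reached a summed expected count of 10 over all libraries and 5 did not. The study compared 3 libraries of Hoxd12-/- cells with 3 libraries of wild-type cells. Per the labels, both groups were C57BL6 embryonic stem cells from the embryo at day 3.5, cultured in mES medium plus 2i (inhibitors of MEK and GSK3, which hold such cells in the naive state). No other allele or agent is named for either group. The labels do not state whether a group's libraries are separate clones or cultures. The p-values therefore rest on library-to-library spread alone, and that spread may be technical.

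Germ line genes serve the making of eggs and sperm, and most are silent in other cells. Meiosis needs a chromosome axis of special cohesins and HORMA proteins, a synaptonemal complex that zips homologues together, and a recombinase. The piRNA pathway uses PIWI proteins and Tudor proteins to silence transposons. Many promoters of these genes are rich in CpG and are shut by DNA methylation and by a variant polycomb complex, PRC1.6, that holds MGA, MAX, E2F6, L3MBTL2 and PCGF6. Naive stem cells in 2i have little DNA methylation, and some germ line genes are transcribed in them.

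Library totals ran from 5412577 to 6280934 expected counts, and levels are given as CPM, in which library size is divided out. A floor of 3 counts lies at 0.478 to 0.554 CPM and covers counting error only. Hoxd12 itself had 0 counts in all 6 libraries, and so it could not be used to check the labels. The 8 markers of stem cell identity summed to 8200 to 8722 CPM in the knockout and 8097 to 8723 CPM in the wild type. Of 10 markers of male germ cells 5 were at 0 in every library, among them the protamine genes Prm1 and Prm2, and the list summed to 6.24 to 8.96 CPM in the knockout and 8.25 to 10.8 CPM in the wild type. Of 8 oocyte markers 2 were at 0 in every library, and the list summed to 4.35 to 6.88 and 9.45 to 10.5 CPM. Fibroblast markers, which could come from feeder cells, were at 0 for 5 of 10 genes and summed to 7.75 to 11.4 and 12.4 to 18.0 CPM. These sums were lower in the knockout for the oocyte and fibroblast lists, and their part in the results below was not tested. In bulk RNA, fewer cells that express a gene and less RNA per cell cannot be told apart.

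Promoters are shown for some genes that carry an E-box or an E2F motif, because PRC1.6 contains an E-box factor and an E2F factor. The RefSeq table (GRCm38.p6) held a window of 300 bases for 34 of the 38 genes. The E-box CACGTG, which reads the same on both strands, was in 13 of these 34 windows (38.2%) and in 7.15% of all 32851 windows of that length. The motif TCCCGC, bound by E2F6 and searched on both strands, was in 10 of 34 (29.4%) and in 20.0% of all windows. Both motifs were in 6 of 34 windows and in 1.99% of all windows. Each motif contains a CG, and the 34 windows had a median of 17 CG pairs, beside 7 for all windows. The windows compared were not matched for CG, and its part in these shares was not tested. Where a gene had several windows, the first listed was used. The 250 bases upstream of the start are printed 5′ to 3′ on the strand of the gene, with either motif in capitals. Fkbp6, Hormad1 and Tex19.1 had lower counts in the knockout, and Mael is a gene without a call. Among called genes not shown, Dazl, which was lower, had neither motif in its window. Adad2, which was higher, had the E-box at 2 sites.
Fkbp6 (chr5:135350045-135350294, minus strand): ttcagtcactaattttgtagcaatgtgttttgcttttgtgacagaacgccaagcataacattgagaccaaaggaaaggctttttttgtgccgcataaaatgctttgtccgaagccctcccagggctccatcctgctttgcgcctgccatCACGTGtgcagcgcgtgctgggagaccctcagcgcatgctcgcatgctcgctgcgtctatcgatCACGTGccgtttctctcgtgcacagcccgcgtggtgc
Hormad1 (chr3:95559427-95559676, plus strand): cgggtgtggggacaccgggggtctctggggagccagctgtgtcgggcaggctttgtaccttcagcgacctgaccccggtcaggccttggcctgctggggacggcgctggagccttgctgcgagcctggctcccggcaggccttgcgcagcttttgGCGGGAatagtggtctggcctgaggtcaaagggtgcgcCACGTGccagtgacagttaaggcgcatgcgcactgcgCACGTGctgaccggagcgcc
Tex19.1 (chr11:121145893-121146142, plus strand): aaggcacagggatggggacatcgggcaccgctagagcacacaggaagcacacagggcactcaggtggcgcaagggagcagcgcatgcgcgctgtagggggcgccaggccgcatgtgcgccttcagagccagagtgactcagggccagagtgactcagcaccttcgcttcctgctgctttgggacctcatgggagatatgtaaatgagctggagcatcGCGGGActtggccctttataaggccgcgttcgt
Mael (chr1:166238745-166238994, minus strand): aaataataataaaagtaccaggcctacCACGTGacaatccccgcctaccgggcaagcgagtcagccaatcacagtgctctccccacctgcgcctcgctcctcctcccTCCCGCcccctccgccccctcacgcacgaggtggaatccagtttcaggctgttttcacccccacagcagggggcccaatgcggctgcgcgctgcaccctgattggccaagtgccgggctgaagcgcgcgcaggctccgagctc
Fkbp6 carried the E-box 101 and 37 bases before its start, and Hormad1 57 and 20 bases before its start. Among the genes with a window, the E-box was in 3 of 10 called genes and in 5 of 10 tested genes without a call; TCCCGC was in 3 of 10 and 6 of 10. A match is a description of letters and not a bound site.

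The Xlr3 copies are shown for their likeness, with the stretch found in all 3 in capitals.
Xlr3a (chrX:73097096-73097345, minus strand): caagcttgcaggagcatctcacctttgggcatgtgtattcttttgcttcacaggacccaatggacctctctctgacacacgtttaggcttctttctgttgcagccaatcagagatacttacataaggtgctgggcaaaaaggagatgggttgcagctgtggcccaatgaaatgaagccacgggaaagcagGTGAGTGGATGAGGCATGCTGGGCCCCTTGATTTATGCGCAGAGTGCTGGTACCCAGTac
Xlr3b (chrX:73191929-73192178, plus strand): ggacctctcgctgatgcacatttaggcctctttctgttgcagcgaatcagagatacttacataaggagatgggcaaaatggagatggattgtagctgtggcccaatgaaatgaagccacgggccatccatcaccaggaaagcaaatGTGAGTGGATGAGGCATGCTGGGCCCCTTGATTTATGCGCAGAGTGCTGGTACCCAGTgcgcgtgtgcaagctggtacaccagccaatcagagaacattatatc
Xlr3c (chrX:73265391-73265640, minus strand): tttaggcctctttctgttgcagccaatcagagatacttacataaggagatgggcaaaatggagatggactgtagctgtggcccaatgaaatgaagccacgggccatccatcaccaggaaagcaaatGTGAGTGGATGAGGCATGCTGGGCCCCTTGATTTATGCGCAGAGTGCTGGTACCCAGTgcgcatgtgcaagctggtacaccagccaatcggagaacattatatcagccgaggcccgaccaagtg
The shared stretch was 58 bases long, and between Xlr3b and Xlr3c the longest shared stretch was 119 bases. None of the 3 windows held either motif. The 6 windows of Xlr3 and Xlr4 genes held 5 to 8 CG pairs in 300 bases. The 26 windows of autosomal members held 5 to 38 with a median of 19, where all windows had a median of 7.

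Of the 33 genes with enough counts 23 entered the test across all genes. In the knockout 8 of the 23 were lower and 2 were higher, 43.5% of those tested. Over all 12891 genes tested, 26.5% were called, 14.4% lower and 12.1% higher (calls by edgeR's quasi-likelihood test at 0.05 after Benjamini-Hochberg adjustment). The median log2 fold change of the 23 genes was -0.27, beside 0.02 for all genes tested. It was -1.34 for the 5 X-linked genes and 0.02 for the 18 autosomal genes, of which 10 were positive and 8 negative. Of the autosomal genes 5 were called lower and 2 higher (38.9%). Knockout libraries lay wholly below the wild type for 8 of the 23 genes and wholly above for 1. Of all genes tested, 39.7% had groups that did not overlap, 20.0% with the knockout below and 19.6% with it above. A filter on low counts decided which genes entered, and 19 of the 23 passed it in both groups. Xlr3b and Rhox9 passed through the wild type alone, and Tdrkh and Smc1b through the knockout alone, so these counts describe the genes and carry no test of the list. The lower genes were Xlr3a, Xlr3b, Rhox5, Fkbp6, Tex19.1, Dazl, Hormad1 and Syce2, and the higher genes were Adad2 and Tdrkh. Of these 10, Hormad1, Syce2 and Tdrkh lost their call in some settings, as given with each gene. Leaving out any of 4 libraries (replicates 2 and 3 of the knockout, replicates 1 and 2 of the wild type) reduced the number higher from 2 to 1, as Tdrkh lost its call.

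**Figure D1:**
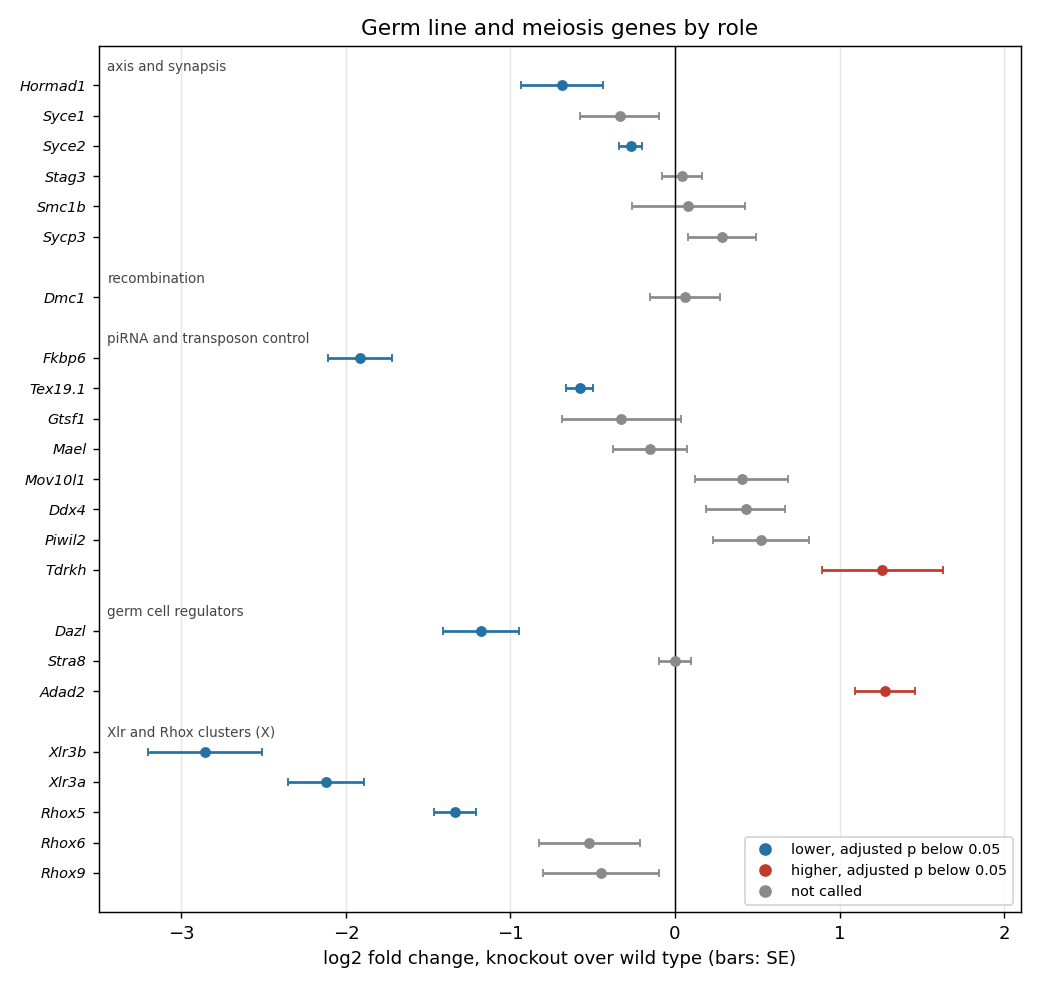
Log2 fold change of knockout over wild type (x axis, bars are SE) for the 23 tested genes, grouped by role, with 3 libraries in each group. Genes lower at adjusted p below 0.05 are blue, higher are red and others grey; both Xlr3 genes, Fkbp6 and Rhox5 lie furthest to the left, and Tdrkh and Adad2 to the right.

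Xlr genes had the largest falls. They form a cluster on the X chromosome and encode nuclear proteins related to SYCP3, and Xlr3b is known as an imprinted gene of the X in the brain. Xlr3a (ENSMUSG00000057836, chromosome X, 73086293 to 73097095, GRCm38) was at 3.20, 2.27 and 2.77 CPM in the knockout libraries and at 15.0, 11.6 and 9.80 CPM in the wild-type libraries. Every knockout library was thus well below every wild-type library. The fall was 4.35-fold (log2 fold change -2.12, SE 0.23, adjusted p = 1.35e-08). Xlr3b (ENSMUSG00000073125, chromosome X, 73192207 to 73202930) was at 1.12, 0.567 and 1.08 CPM in the knockout and at 6.11, 8.14 and 6.53 CPM in the wild type. Its groups did not overlap either (log2 fold change -2.86, SE 0.34, adjusted p = 9.00e-08). Knockout replicate 2 had 3.37 counts, close to the floor of 3 counts. Xlr3b was below the filter's cutoff of 1.66 CPM in every knockout library. It entered the test through the wild type alone and could enter only as a fall, so its adjusted p is a description. On log2(TPM + 1) its change was -1.74 and remained called.

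The copies are nearly alike, so the value of a single copy is uncertain. Of all 50-base words in the annotated transcripts of Xlr3a 44.8% occur in transcripts of other genes, of Xlr3b 56.5% and of Xlr3c 72.1%; for Xlr4a, Xlr4b and Xlr4c the shares were 77.7%, 52.2% and 63.8%. Fractions are found where reads are divided between genes, and 17 of the 18 Xlr3 values and 14 of the 18 Xlr4 values were not whole (within 0.02). Summing copies removes the split inside a family but not reads divided with genes outside it, and the sums were whole in 3 of 6 libraries for Xlr3 and in 3 of 6 for Xlr4. The 3 Xlr3 genes together had 28.0, 17 and 27 counts in the knockout and 127, 128 and 101 in the wild type. The sum was 3.95 ± 0.658 CPM in the knockout against 20.1 ± 2.50 CPM in the wild type (SD, n = 3). This is a 5.03-fold fall, -2.33 on the log2 scale (SE 0.18, edgeR adjusted p = 5.62e-12). The 3 Xlr4 genes were each too low for the test. Together they had 9, 5 and 7 counts in the knockout and 35.2, 34.8 and 26.2 in the wild type. In the fit of the sums Xlr4 fell 4.60-fold (log2 fold change -2.20, SE 0.35, adjusted p = 9.59e-06). The Xlr4 sum was at 1.44, 0.945 and 1.08 CPM in the knockout, below the filter's cutoff of 1.66 CPM. It entered the test through the wild type alone and could enter only as a fall, so its adjusted p is a description. The difference between the families was not tested.

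**Figure D2:**
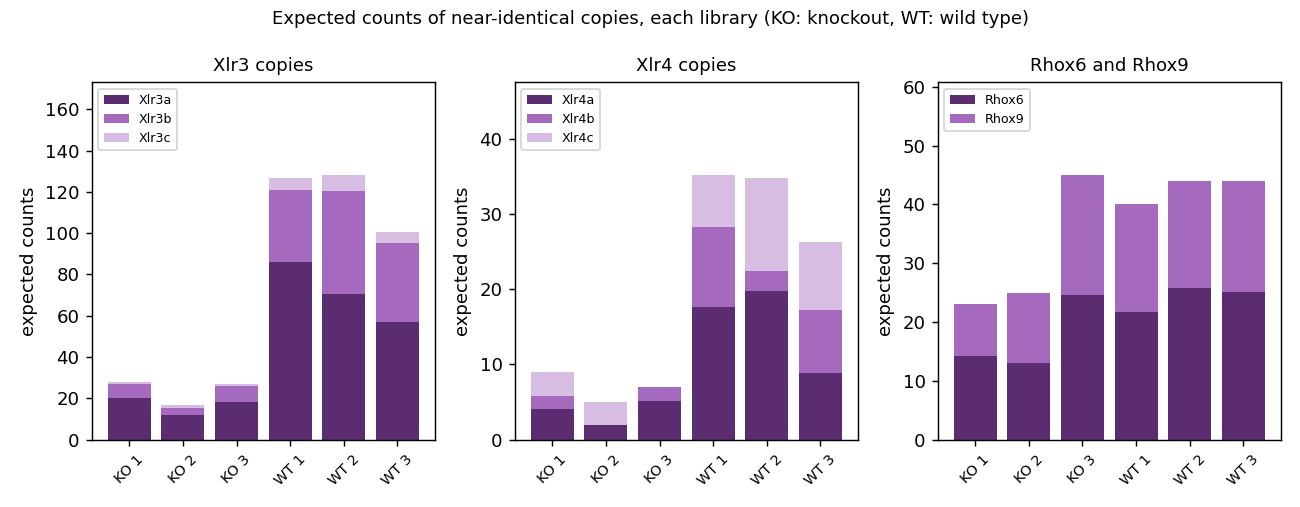
Expected counts (y axis) in each of the 6 libraries (x axis, KO knockout and WT wild type) for Xlr3 copies, Xlr4 copies and the pair Rhox6 and Rhox9, stacked by gene. Xlr3 sums are 17 to 28.0 in the knockout and 101 to 128 in the wild type, while for the Rhox pair the knockout replicate 3 stands at 45 counts beside wild-type counts of 40 to 44, before library size is divided out.

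Other genes of the same stretch also fell, though not all of them. The 6 Xlr3 and Xlr4 genes span 191 kb, and within 150 kb on either side of them 8 further genes were tested. Of these 4 fell, 0 rose and 4 were not called, where 14.4% of all genes tested were lower and 12.1% higher. The names below were picked with their values known. Xlr5a, Xlr5b and Gm14685 were below the filter's cutoff of 1.66 CPM in every knockout library. They entered through the wild type alone and so could enter only as falls, and the count carries no test of the stretch. Xlr5a (log2 fold change -2.44, adjusted p = 9.10e-06) and Xlr5b (-3.96, adjusted p = 2.60e-06) are further members of the Xlr family. Gm14685 had 2, 0 and 0.03 counts in the knockout and 12, 20 and 10.1 in the wild type (adjusted p = 6.05e-05). Pnma5, a gene of a retrotransposon-derived family, had a smaller fall (-1.03, adjusted p = 4.10e-05). The single-copy gene F8a lies between Xlr4b and Xlr4c and had 25, 19 and 25 counts in the knockout and 25, 21 and 12 in the wild type (0.22, SE 0.31, adjusted p = 0.658). On the flanks, Nsdhl (-0.11), Zfp185 (-0.0015) and Zfp275 (0.16) were not called. Xlr5a is annotated across Xlr3b on the opposite strand, and whether the counting used strand is not given in the sources used here. The 59 tested neighbours within 5 Mb of Xlr3a had a median of -0.0021, with 6 higher and 11 lower.

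**Figure D3:**
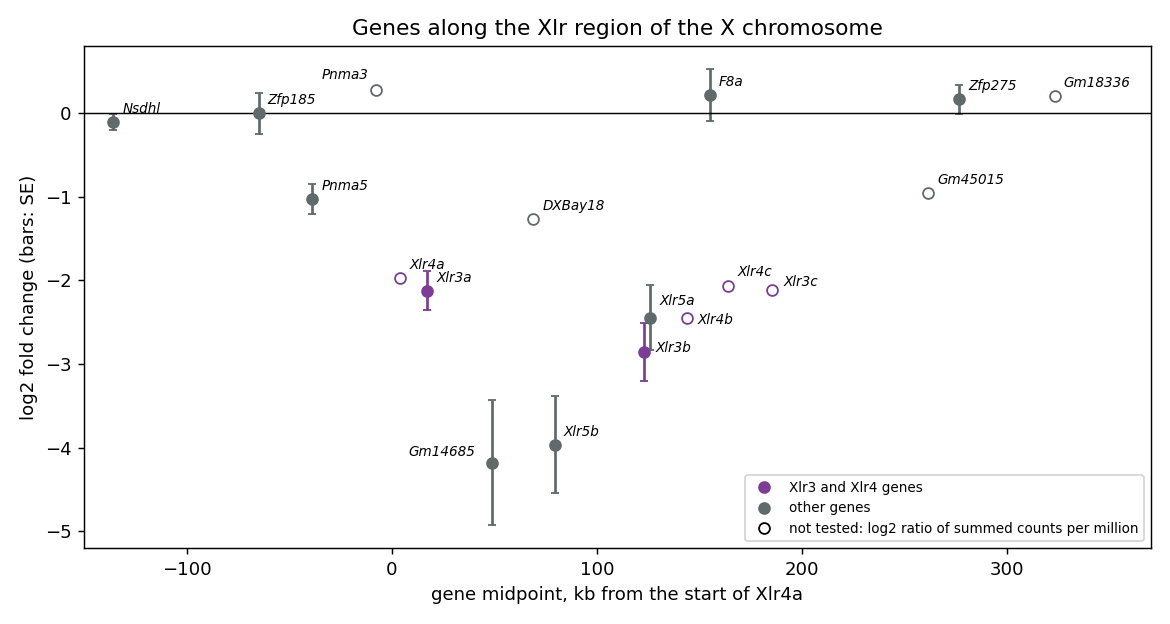
Log2 fold change of knockout over wild type (y axis, bars are SE) against the gene's midpoint in kb from the start of Xlr4a (x axis) for 18 genes with at least 10 counts around the Xlr3 and Xlr4 copies. Filled points were tested and open points show the log2 ratio of summed CPM; Xlr genes and Gm14685 lie below -1.5, whereas F8a in their midst lies at 0.22.

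Rhox genes are homeobox genes of a second X-linked cluster, expressed in testis, ovary and placenta. Rhox5 (ENSMUSG00000095180, chromosome X, 37804842 to 37808876) was at 13.1, 12.3 and 10.3 CPM in the knockout and at 26.9, 30.8 and 32.3 CPM in the wild type. The groups were far apart, with means of 11.9 ± 1.44 and 30.0 ± 2.79 CPM (SD, n = 3). The fall was -1.34 on the log2 scale (SE 0.13, edgeR adjusted p = 6.98e-10). Its transcripts shared no 50-base word with another gene. Rhox6 (log2 fold change -0.52, adjusted p = 0.228) and Rhox9 (-0.45, adjusted p = 0.375) were not called. All 12 of their values were fractions, but in all 6 libraries their sum was whole within 0.02. The sums were 23, 25 and 45 counts in the knockout and 40, 44 and 44 in the wild type. With library size divided out they were 3.68, 4.73 and 6.93 CPM in the knockout and 6.99, 7.17 and 7.56 CPM in the wild type. The groups did not overlap, though knockout replicate 3 was close to the lowest wild-type library. The fit of the summed pair, added after seeing the data, made no call (-0.49, SE 0.23, adjusted p = 0.12). Of 42 annotated Rhox genes 6 had at least 10 counts and 23 had none. The 25 neighbours tested within 5 Mb of Rhox5 had a median of 0.01. Over the 410 tested genes of the X chromosome the median was 0.08, with 54 higher and 40 lower (9.76%).

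Genes of the piRNA pathway and of transposon control went in both directions. Of 8 tested, Fkbp6 and Tex19.1 fell, Tdrkh rose and 5 were not called. Of these 8, 37.5% were called and 25% were lower, beside 26.5% and 14.4% of all genes. Tdrkh passed the filter through the knockout alone, so the share called carries no test. Fkbp6 encodes a co-chaperone of piRNA production that also binds meiotic chromosomes. Fkbp6 (ENSMUSG00000040013, chromosome 5, 135291704 to 135350044) was at 5.28, 5.10 and 3.08 CPM in the knockout and at 17.6, 19.22 and 13.6 CPM in the wild type. The groups did not overlap, and the fall was 3.77-fold (log2 fold change -1.92, SE 0.20, adjusted p = 3.33e-09). Among its 5 tested neighbours within 100 kb, Pom121 (0.62), Baz1b (0.22) and Hip1 (0.30) rose, Nsun5 (-0.18) fell and Fzd9 (-0.20) was not called. These too were picked with values known. The 111 neighbours within 5 Mb of Fkbp6 had a median of -0.07, with 12 higher and 30 lower.

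Tex19.1, which protects the germ line from transposons and is active in pluripotent cells, was at 34.7, 34.0 and 34.6 CPM in the knockout. In the wild type it was at 49.8, 50.5 and 54.3 CPM. The spread inside each group was small against the difference (log2 fold change -0.58, SE 0.08, adjusted p = 1.56e-06). Tex19.1 (ENSMUSG00000039329) lies on chromosome 11 from 121146143 to 121148319. Chromosome 11 as a whole was lower, with a median of -0.12 and 27.9% of its 1050 tested genes called lower, and the 108 neighbours within 5 Mb of Tex19.1 had a median of -0.19 with 38 lower and 7 higher. The part of this shift in the value of Tex19.1 was not tested. Its paralogue Tex19.2, 27466 bases away, was at 1.69 CPM in the knockout and 1.91 CPM in the wild type and was not called (-0.13, adjusted p = 0.870).

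Tdrkh, a Tudor protein on mitochondria that binds PIWI proteins for trimming of piRNAs, had 20, 29 and 32 counts in the knockout. In the wild type it had 8, 6 and 19. Wild-type replicate 3, at 3.27 CPM, was above knockout replicate 1, at 3.20 CPM, so the groups overlapped. Tdrkh passed the low-count filter through the knockout alone, with 1 wild-type library above the cutoff. The test called a rise (log2 fold change 1.26, SE 0.37, adjusted p = 0.0107), and for this reason its adjusted p is a description. Of 17 alternatives 6 ended that call. Leaving out knockout replicate 2 gave an adjusted p of 0.0542, and knockout replicate 3 gave 0.0564. Leaving out wild-type replicate 1 gave 0.0611, and wild-type replicate 2 gave 0.0864. A transcript length offset gave 0.0639 and log2(TPM + 0.1) gave 0.0641. Over all 17, adjusted p ran from 0.00184 to 0.0864, and without wild-type replicate 3 the change was 1.91. Tdrkh lies on chromosome 3 from 94413273 to 94434668 and has the gene ENSMUSG00000041912.

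The other tested genes of the pathway had no call. Piwil2, a PIWI protein, was at 4.8, 4.35 and 5.23 CPM in the knockout and 3.14, 2.44 and 4.47 CPM in the wild type (log2 fold change 0.52, adjusted p = 0.192). Ddx4, the germ cell helicase Vasa, had 52, 29 and 39 counts against 21, 33 and 33 (0.43, adjusted p = 0.194). Both genes overlapped between the groups. Mov10l1, a helicase that starts piRNA processing, stood at 0.41 (adjusted p = 0.313). Mael, of the germ cell nuage, stood at -0.15 (adjusted p = 0.676) and Gtsf1, a PIWI partner, at -0.33 (adjusted p = 0.554). Among the genes below the test, Tdrd1 had 3, 1 and 6 counts against 0, 2 and 1, and Tdrd9 had 8, 0 and 1 against 10, 3 and 3. Their groups overlapped, and neither was called when the filter was lowered to 10 summed counts.

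Of the 3 tested germ cell regulators, Dazl fell, Adad2 rose and Stra8 showed no call (66.7% called, beside 26.5% of all genes). Dazl, an RNA-binding protein needed for germ cell development, was at 2.40, 5.10 and 5.54 CPM in the knockout. In the wild type it was at 9.43, 9.61 and 10.5 CPM. Knockout replicate 1 was the lowest and all 3 were below the wild type (2.27-fold, log2 fold change -1.18, SE 0.23, adjusted p = 0.000219). Without knockout replicate 1 the fall was -0.88 and remained called. Dazl (ENSMUSG00000010592) lies on chromosome 17 from 50279395 to 50293636.

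Adad2, a testis protein with an adenosine deaminase domain, was at 15.2, 13.8 and 11.4 CPM in the knockout and 5.41, 5.86 and 5.33 CPM in the wild type. All knockout libraries were above all wild-type libraries (2.42-fold, log2 fold change 1.28, SE 0.18, adjusted p = 1.92e-06). Adad2 (ENSMUSG00000024266) lies on chromosome 8 from 119612747 to 119616924. On that chromosome 30.2% of 703 tested genes were higher with a median of 0.17, and the 88 neighbours within 5 Mb had a median of 0.18 with 26 higher and 7 lower. Its nearest tested neighbour, Taf1c at 7525 bases, averaged 32.7 CPM in the knockout and 32.6 CPM in the wild type and was not called. Of the other tested genes within 100 kb, Mbtps1 rose (0.40, adjusted p = 1.47e-06), and Hsdl1 (0.23) and Dnaaf1 (-0.22) were not called. The part of the chromosome's shift in the rise of Adad2 was not tested.

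Stra8, the retinoic acid target that starts meiosis, was at 32.7, 33.1 and 31.2 CPM in the knockout and at 29.3, 32.2 and 35.2 CPM in the wild type. The knockout libraries fell inside the wild-type range (log2 fold change 0.00075, SE 0.10, adjusted p = 0.997). Chromosome 6, which holds Stra8, had a median of 0.16 with 30.5% of 600 tested genes higher, and the 48 neighbours of Stra8 within 5 Mb had a median of 0.14. The part of this shift in the value of Stra8 was not tested. The gene was among the best expressed of the list, with a mean of 25.4 TPM (a level per transcript length). Taf7l, a germ cell TFIID subunit, had 7, 10 and 5 counts against 8, 6 and 6, and Brdt, a testis bromodomain protein, had 9, 3 and 1 against 10, 1 and 2. Neither was tested.

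**Figure D4:**
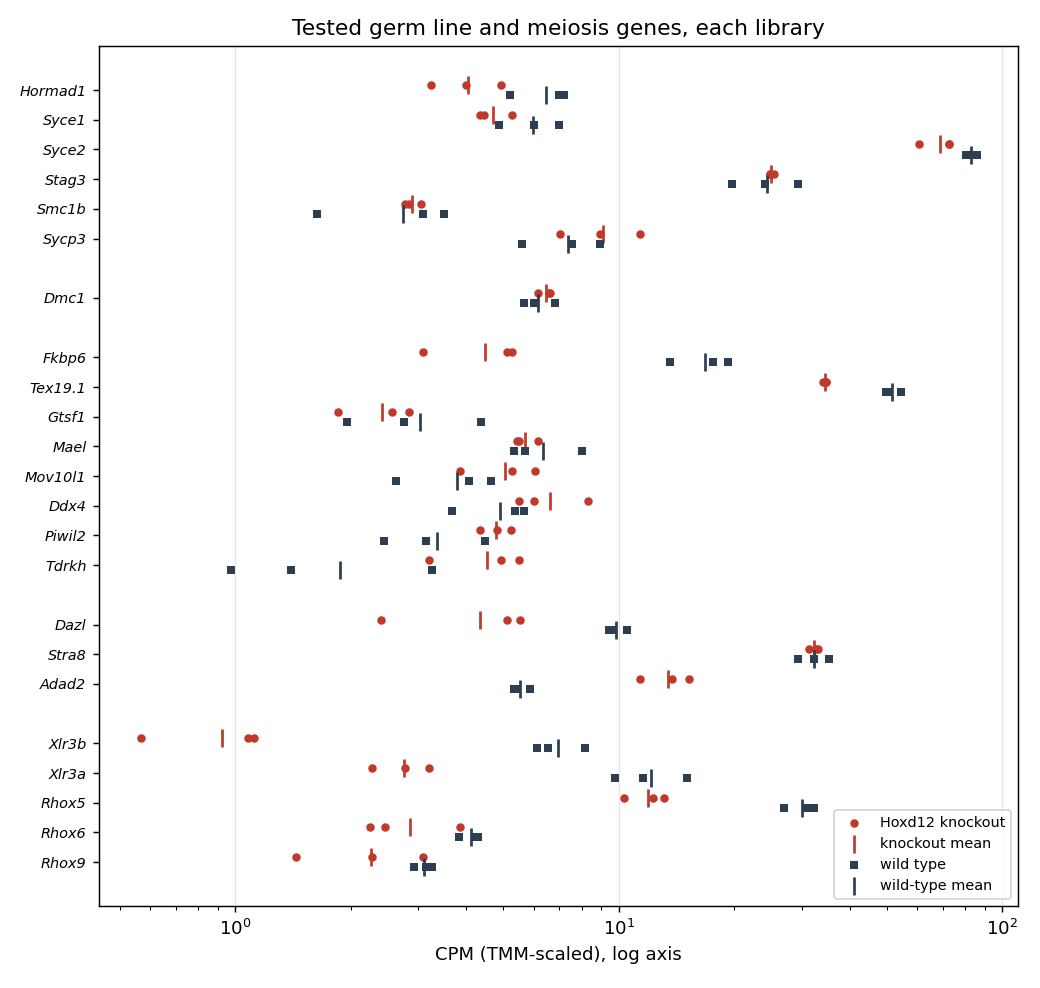
CPM of each library (x axis, log scale) for the 23 tested genes, with knockout libraries as red circles, wild-type libraries as dark squares and the group means as vertical ticks. Groups are apart for Fkbp6, Tex19.1, Dazl, Adad2, Xlr3a, Xlr3b and Rhox5, and by a smaller margin for Hormad1 and Syce2, whereas Stra8, Stag3 and Dmc1 overlap between the groups.

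Of 6 tested genes of the meiotic chromosome axis and of synapsis, Hormad1 and Syce2 fell and 4 were not called (33.3% called, beside 26.5% of all genes). Syce2, of the central element of the synaptonemal complex, had the highest level of the list per length (mean TPM 101). It was at 72.8, 72.8 and 60.8 CPM in the knockout and at 85.8, 80.6 and 82.0 CPM in the wild type. The groups did not overlap but were close (log2 fold change -0.27, SE 0.07, adjusted p = 0.00382). Without knockout replicate 3, the lowest library, the call was lost (-0.18, adjusted p = 0.0625), as on log2(TPM + 1) (-0.14, adjusted p = 0.157) and log2(TPM + 0.1) (-0.14, adjusted p = 0.156), and the 17 alternatives spanned 0.000874 to 0.157. Syce2 (ENSMUSG00000003824, chromosome 8, 84872111 to 84888221) overlaps Gcdh on the opposite strand, which had means of 241 and 225 counts and was not called. Syce2 lies on chromosome 8, whose shift is given with Adad2, and its 82 neighbours within 5 Mb had a median of 0.11 with 25 higher and 9 lower.

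Hormad1, a HORMA protein of unsynapsed axes, was at 4.0, 4.92 and 3.23 CPM in the knockout and 6.99, 5.21 and 7.22 CPM in the wild type. The groups were separate by a small margin (log2 fold change -0.68, SE 0.25, adjusted p = 0.0397). The call did not last in 10 of 17 alternatives, where adjusted p ran from 0.0284 to 0.172 over all. Dropping knockout replicate 1 gave 0.0935 and replicate 3 gave 0.172, while dropping wild-type replicate 1 gave 0.125 and replicate 3 gave 0.150. DESeq2 gave 0.152 and the replicate block 0.0548. Of its 50-base words 22.9% occur in other genes, mostly in Gm15529, so its level is uncertain. Hormad1 (ENSMUSG00000028109) lies on chromosome 3 from 95559677 to 95587671.

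Meiotic cohesin genes showed no call. Stag3, a cohesin subunit of meiosis, was at 25.5, 24.8 and 24.8 CPM in the knockout and at 29.3, 19.7 and 24.1 CPM in the wild type (log2 fold change 0.04, adjusted p = 0.843). Its knockout libraries were much closer to each other than its wild-type libraries. Smc1b, its partner, had 19, 15 and 18 counts against 20, 10 and 18 (0.08, adjusted p = 0.890). Sycp3, of the lateral element, stood at 0.29 (adjusted p = 0.331) and Syce1, of the central element, at -0.34 (adjusted p = 0.327). Dmc1, the meiotic recombinase, was at 6.56, 6.62 and 6.16 CPM against 6.81, 6.03 and 5.67 CPM (0.06, adjusted p = 0.867). Sycp1, of the transverse filament, had 15, 7.03 and 9 counts against 5.04, 9.08 and 2, and Syce3 had 3, 4 and 3 against 13, 4 and 8; neither was tested.

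The 5 genes below 10 counts were Sycp2, Spo11, Mei1, Asz1 and Tex101. Together they had 8 counts in the knockout and 16 in the wild type. Spo11, which makes the breaks that start meiotic recombination, had 0 counts in all 6 libraries. Of the 10 genes with at least 10 counts that did not enter the test, the 4 Xlr3c and Xlr4 genes were lower in every knockout library than in any wild-type library. Among all genes that were tested, 20.0% had the knockout wholly below. Xlr3c had 1.2, 1.62 and 1.2 counts against 5.88, 7.85 and 5.53. With a filter of only 10 summed counts, 33 genes were tested and 11 were lower, now with Xlr4a, Xlr4b and Xlr4c. Over all 17070 genes tested under that filter, 19% were called and 1780 genes were lower. Most counts of these Xlr4 genes came from the wild type, so their calls are a description.

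The deposited gene length is weighted by the abundance of isoforms and so reports isoform use. Among the 23 tested genes it was constant for 3, overlapped for 19 and was separate for 1, where 12.5% of all genes tested were separate. The separate gene was Gtsf1, at 785, 804 and 772 bases in the knockout and 721, 737 and 698 bases in the wild type. This rests on 12 to 25 counts per library. Fkbp6 had a mean length of 1314 bases in the knockout and 1313 in the wild type, and Adad2 was at 1926 bases in all libraries.

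Further genes of the same processes were read from lists chosen for their roles. Of 14 other meiosis genes tested 3 fell, 0 rose and 11 were not called (21.4% called, beside 26.5% of all genes). Those lower were Rec114 (log2 fold change -0.97, adjusted p = 1.27e-05), which acts in break formation, Sohlh2 (-0.90, adjusted p = 3.18e-05), a germ cell transcription factor, and Hormad2 (-0.58, adjusted p = 0.0386). Hormad2 lies on chromosome 11, whose shift is given with Tex19.1, and the part of that shift in its value was not tested. Of 11 other piRNA genes 3 fell and 0 rose (27.3%). They were Tdrd12 (-0.40, adjusted p = 0.000138), Exd1 (-1.23, adjusted p = 0.0283) and Morc1 (-0.26, adjusted p = 0.00156). Exd1 was at 1.12, 0.756 and 1.85 CPM in the knockout, around the filter's cutoff of 1.66 CPM. It passed the filter through the wild type alone, so its adjusted p is a description. Of 5 other genes of X-linked germ line clusters Xlr5a, Xlr5b and Mageb16 (-0.50, adjusted p = 0.00113) fell (60% lower, beside 14.4% of all genes). Xlr5a and Xlr5b passed the filter through the wild type alone, so this share carries no test. Of 12 factors of primordial germ cells, which stem cells also express, 3 fell and 1 rose (33.3%). Sall4 (-0.19, adjusted p = 0.00753) and Ifitm3 (-0.15, adjusted p = 0.0274) were lower and Alpl (0.16, adjusted p = 0.0108) higher. By direction, 21.4% of the meiosis list and 27.3% of the piRNA list were lower, beside 14.4% of all genes, and 0 were higher, beside 12.1%. The piRNA share includes Exd1 and so carries no test. The medians of these lists were -0.19 and -0.33, beside 0.02 for all genes.

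Among 22 repressors of germ line genes 8 rose and 4 fell (54.5% called, 18.2% lower), beside 26.5% called, 12.1% higher and 14.4% lower of all genes. Rcor2 (log2 fold change -0.51, adjusted p = 2.42e-10) and Trim28 (-0.28, adjusted p = 5.36e-06), a corepressor of zinc finger proteins, were lower. Rybp, a polycomb subunit, was higher (0.29, adjusted p = 2.83e-05). Within PRC1.6, Mga was higher (0.34, adjusted p = 0.00153) and L3mbtl2 lower (-0.18, adjusted p = 0.0145), both picked with values known. The other named subunits, Max (-0.004), E2f6 (-0.064) and Pcgf6 (0.072), were not called. Among 11 genes of DNA methylation 4 rose and 1 fell (45.5%, beside the same 26.5%). Dnmt3b, a de novo methyltransferase, was at 19.9 CPM in the knockout and 32.1 CPM in the wild type (-0.69, adjusted p = 8.13e-06). Tet1 (0.35, adjusted p = 0.000544), a 5-methylcytosine oxidase, and the maintenance methyltransferase Dnmt1 (0.25, adjusted p = 0.00171) were higher. DNA methylation itself was not measured.

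Somatic counterparts of the listed genes were read in the same way. Of 13 tested 5 rose and 0 fell (38.5%), where 12.1% of all genes were higher and 14.4% lower. The mitotic cohesin genes Smc1a (log2 fold change 0.34, adjusted p = 7.95e-06) and Smc3 (0.30, adjusted p = 0.000726) rose, as did Brd2 (0.22, adjusted p = 0.00147). Their meiotic relatives Smc1b and Stag3 had no call, and the differences between relatives were not tested. Genes that mark 2-cell-like cells, a small fraction of stem cell cultures in which some germ line genes are also active, fell in 6 of 6 tested (14.4% of all genes were lower). Of the 17 genes listed, 12 had at least 10 counts. Through which group the 6 passed the low-count filter was not examined, so this share carries no test. The 17 genes had a summed level of 87.2 to 98.1 CPM in the knockout and 138 to 148 CPM in the wild type. Their part in the falls of the germ line genes was not tested.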

How the data were processed

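Polyadenylated RNA of 6 libraries was read from deposited tables of 1 file per library. Each holds the authors' expected count per gene, an estimated count with no scaling for depth. Deposited TPM values, scaled for transcript length, served as an alternative, and deposited FPKM values entered no test. The gene lengths, per the file headers, weight isoforms by abundance. Bowtie 0.12.2, mm10 and mm8 appear in the submitters' processing notes without a stated role. For the quantifier, its annotation and strand, the methods were not given in the sources used here. GENCODE M21 (GRCm38) gave symbols and positions and held all 55450 identifiers.

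Counts were rounded and fitted in R 4.3.3 with edgeR 4.0.16 (TMM, filterByExpr, robust quasi-likelihood test, group as the only term), adjusted by Benjamini-Hochberg over all genes and called below 0.05. CPM use TMM-scaled library sizes. The steps were tested on simulated counts. Alternatives were RLE scaling, DESeq2 1.42.0, 3 other filters, a replicate block, a length offset, limma 3.58.1 on TPM in log2 with a pseudocount of 1 or 0.1, summed copies and each library left out. All genes of the list with at least 10 summed counts are named. Of each further pathway list, up to 3 called genes of at least 1 CPM with the smallest p are named. Called genes of the cell marker lists, and of lists of Y-linked and X inactivation genes, are not named. Members and lists were chosen with earlier results of these data known. The Dixon check for outlying samples needs groups larger than 3 and was not run.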

Additional observations from a re-analysis of the deposited data

How the results depend on the processing

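Of the 10 called genes, 7 kept direction and call in every alternative fitted: Fkbp6, Tex19.1, Dazl, Adad2, Rhox5, Xlr3a and Xlr3b. Xlr3b had passed the main filter through the wild type alone, so its call is a description. Syce2, Hormad1 and Tdrkh kept direction but lost the call in 3, 10 and 6 of 17 alternatives. None of the 13 genes without a call gained one. The number of listed genes higher was 1 on log2(TPM + 0.1) and with the length offset, and ran from 1 to 2 when a library was left out. Among all genes, DESeq2 called 701 higher, and limma called 749 lower on log2(TPM + 1) and 738 lower on log2(TPM + 0.1), against 1559 and 1861; the cause was not tested. The TPM scales shifted the median of all genes to 0.10 and 0.11.

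Directions turned for 6 genes without a call. With a library left out, Stag3 ran from -0.091 (without wild-type replicate 2) to 0.19, Smc1b from -0.19 (without wild-type replicate 2) to 0.29, Mael from -0.26 to 0.045 (without wild-type replicate 1), Gtsf1 from -0.56 to 0.028 (without wild-type replicate 1) and Stra8 from -0.065 (without wild-type replicate 1) to 0.066. Stra8 was also at -0.0074 and -0.014 without knockout replicate 1 or 2, -0.0049 with RLE scaling, -0.0044 with DESeq2 and -0.018 with the length offset. Smc1b was at -0.12 on log2(TPM + 1), -0.16 on log2(TPM + 0.1) and -0.34 with the length offset. Dmc1 was at -0.053, -0.057 and -0.17 in these settings.

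Libraries with the same replicate number did not deviate together (r of 0.0036, 0.04 and 0.02 for numbers 1, 2 and 3), so the numbers were not taken to pair libraries. With the replicate block 7 listed genes were lower and 2 higher, and over all genes the count was 3353 against 3420; Hormad1 alone lost its call in the list. The main filter kept 10 genes with at least 10 counts out of the test. Under lower filters Xlr4a, Xlr4b, Xlr4c and Xlr3c were called lower in some settings. With the filter of 1 CPM in 3 libraries, Xlr3c, Xlr4a and Xlr4c passed through the wild type alone. The 5 genes under 10 counts are given by counts only.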
